A study of Mus musculus with 5 samples.

Results

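The variable (V) genes of the T cell receptor (TCR) alpha chain were read from 2 single-cell TCR libraries of tissue from mice with tumours, by taking every V gene that the authors had assigned to a productive alpha-chain (TRA) contig. Of 227 V genes called in all the receptor libraries, 61 were TRA V genes, against 21 of the beta chain (TRB). All 61 matched a gene on chromosome 14 in the GENCODE M21 annotation of GRCm38, which holds 128 Trav genes.

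The mice were BALB/c animals aged 6 weeks with subcutaneous grafts of CT26, a mouse colon carcinoma line. One group was injected intraperitoneally with 100 µg of clone 9H10, an antibody to the T cell checkpoint receptor CTLA-4, at days 5, 8 and 11. The control group got PBS in its place, and the mice were killed at day 13. The labels name the material only as tissue, give no number of animals, and provide at most 1 library per assay and treatment. No difference between the libraries therefore has a replicate check, and no test was made. Every interval below is an exact 95% interval that covers counting error only.

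An alpha chain is assembled in the thymus by joining 1 of many V genes to 1 of many joining (J) genes, with no D gene in between. The junction of both forms CDR3, the loop that lies over the presented peptide, and bases can be trimmed or added there. Cells can go on replacing the first join with a V gene farther out and a J gene farther in until a usable receptor is made. Large blocks of the mouse V array are duplicated, which gives V genes named with D or N that can be nearly identical to the plain copy. A few joins recur across animals. TRAV11 with TRAJ18 marks invariant natural killer T (NKT) cells, which see lipids on CD1d and carry the transcription factor Zbtb16, and TRAV1 with TRAJ33 marks mucosal-associated invariant T (MAIT) cells.

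The control library gave 255 TRA contigs in 232 cell barcodes, and the anti-CTLA-4 library gave 1248 contigs in 1167 barcodes. A chain was counted once for each clonotype the authors had deposited, which left 246 and 953 chains. All these barcodes were present in the matching expression libraries and passed the filter there. They held a median of 2366 UMIs (unique molecular identifiers, 1 per captured molecule) in the control and 3909 with anti-CTLA-4. The median depth of a TRA contig was 3 UMIs in both libraries, with a range of 1 to 39 and 1 to 33, and 34 of 255 and 225 of 1248 contigs rested on 1 UMI. A TRA contig was found in 212 of the 282 control barcodes with a TRB contig (75.2%) and in 1074 of 1529 with anti-CTLA-4 (70.2%). A second TRA contig was present in 23 control barcodes (9.91%) and 81 anti-CTLA-4 barcodes (6.94%), and no barcode had more. Cd3e, a subunit of the TCR complex, was detected in 87.1% and 94.3% of the TRA barcodes. The B cell gene Cd79a was detected in 1 of 232 and in 16 of 1167. The TCR libraries shared no barcode, and the expression libraries shared 20, of which 0 control and 4 anti-CTLA-4 barcodes held a TRA contig.

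The sequences that the results turn on are printed here as CDR3 nucleotides, 5′ to 3′. Capitals mark bases that matched neither the V nor the J gene of the reference, which comes from C57BL/6, so a BALB/c allele can also end a match and add capitals. The first set holds the 4 chains with the same V gene, J gene and CDR3 nucleotides in both libraries, since these were seen under both treatments.
TRAV11-TRAJ18: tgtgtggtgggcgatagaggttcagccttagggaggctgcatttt
TRAV3-3-TRAJ13: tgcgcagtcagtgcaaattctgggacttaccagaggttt
TRAV21-DV12-TRAJ56: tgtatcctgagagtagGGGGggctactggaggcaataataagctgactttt
TRAV4-2-TRAJ49: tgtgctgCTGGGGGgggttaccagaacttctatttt

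The second set holds the 6 different chains that joined TRAV7-3 to TRAJ22 with anti-CTLA-4, and the 1 control chain of that pair found in a Cd8a cell, since they shared a beta V gene. They are in order of the number of cells, with the control chain last.
TRAV7-3-TRAJ22, 8 cells: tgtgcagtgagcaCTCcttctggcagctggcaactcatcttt
TRAV7-3-TRAJ22, 7 cells: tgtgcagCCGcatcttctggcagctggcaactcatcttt
TRAV7-3-TRAJ22, 3 cells: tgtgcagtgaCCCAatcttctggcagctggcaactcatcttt
TRAV7-3-TRAJ22, 3 cells: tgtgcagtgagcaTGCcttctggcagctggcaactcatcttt
TRAV7-3-TRAJ22, 2 cells: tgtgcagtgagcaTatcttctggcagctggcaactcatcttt
TRAV7-3-TRAJ22, 1 cell: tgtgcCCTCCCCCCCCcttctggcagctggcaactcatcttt
TRAV7-3-TRAJ22, control, 1 cell: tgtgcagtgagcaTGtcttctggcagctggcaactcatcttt

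The third set holds the 3 largest anti-CTLA-4 clonotypes, all of them found in Cd8a cells.
TRAV13-2-TRAJ34, 24 cells: tgtgctCCCTCCGacaaagtcgtcttt
TRAV21-DV12-TRAJ52, 16 cells: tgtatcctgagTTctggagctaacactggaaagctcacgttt
TRAV21-DV12-TRAJ57, 13 cells: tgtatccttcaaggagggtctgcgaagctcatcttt

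Counted once a clonotype, the alpha repertoire was spread over many V genes in both libraries. The control held 51 V genes and the anti-CTLA-4 library held all 61. The 10 V genes absent from the control calls had 1 or 2 chains each in the anti-CTLA-4 library, except TRAV19 with 13 and TRAV6D-4 with 19. At the control number of chains the anti-CTLA-4 library would hold 51.65 V genes by hypergeometric calculation. The 10 leading V genes took 41.9% of control chains and 41.3% of anti-CTLA-4 chains. TRAV3-3 (chr14:53665929-53666506) had the most chains, with 11 in the control (4.47%) and 59 with anti-CTLA-4 (6.19%), a ratio of 1.38 (0.720 to 2.92). TRAV16N followed with 14 and 44 chains, TRAV9-1 with 9 and 45, and TRAV7-4 with 6 and 43. The other leading genes were TRAV6-6, TRAV7-3, TRAV6N-7, TRAV14D-3-DV8, TRAV13-1 and TRAV4-3, and all 10 had a ratio between 0.811 and 1.85 with an interval that included 1.

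Between the libraries 43 V genes could be compared, having at least 10 chains over both, and their median ratio of anti-CTLA-4 over control was 1.03. Of these, 13 lay past 2-fold (30.2%), 6 upward (14%) and 7 downward (16.3%). Beside those described next, 5 genes on the upper side with 1 or 2 control chains each had ratios of 2.07 to 3.87, and the other 4 on the lower side 0.369 to 0.465. The same fold gave 0 of 16 TRB V genes by clonotype. By UMIs in the same barcodes it gave 18.7% of 10071 genes with at least 20 UMIs. TRB sequences numbered 279 and 1218 over fewer V genes, so these shares do not rest on equal counts per gene. With at least 20 chains, 5 of 23 TRA V genes lay past 2-fold. The interval excluded 1 for only 5 of the 43 genes. TRAV6D-4 (chr14:52753367-52753846) had 0 of 246 chains in the control, where its exact upper limit is 1.49%, and 19 of 953 with anti-CTLA-4 (1.99%). The exact interval of the ratio began at 1.20. TRAV8D-1 had 1 control chain and 24 with anti-CTLA-4, a ratio of 6.19 with a wide interval (1.01 to 255). TRAV19 had 0 and 13 chains, and its exact lower bound of 0.787 did not exclude 1. On the lower side, TRAV10D had 8 and 7 chains (ratio 0.226, 0.0697 to 0.713), TRAV6-5 had 13 and 17 (0.338, 0.154 to 0.756) and TRAV1 had 6 and 5 (0.215, 0.0519 to 0.846). The Trav6-5 UMIs went the other way but were rarely found with TRAV6-5 contigs, as given below.

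Closely related copies limit these calls, so V genes that share a name apart from the D or N were also added up. Identity is taken over whole annotated transcripts, so unequal annotated lengths lower it. TRAV6D-4 is 97.4% identical to TRAV6-4, and both together had 1 control chain and 34 anti-CTLA-4 chains (0.407% and 3.57%; ratio 8.78, 1.47 to 357). TRAV10D and TRAV10N, which is 83.7% identical to it, together gave 12 and 15 chains (4.88% and 1.57%; 0.323, 0.141 to 0.755). The interval thus excluded 1 for both after merging. The merging was decided on with these values known. TRAV7-4 with TRAV7D-4 gave 8 and 67 chains (ratio 2.16, 1.04 to 5.21). Among whole subgroups the 8 TRAV7 genes took 11.4% of control and 17.6% of anti-CTLA-4 chains (28 and 168; ratio 1.55, 1.03 to 2.40). The 8 TRAV6 genes took 17.1% and 15.3% (0.897, 0.633 to 1.30).

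**Figure D1:**
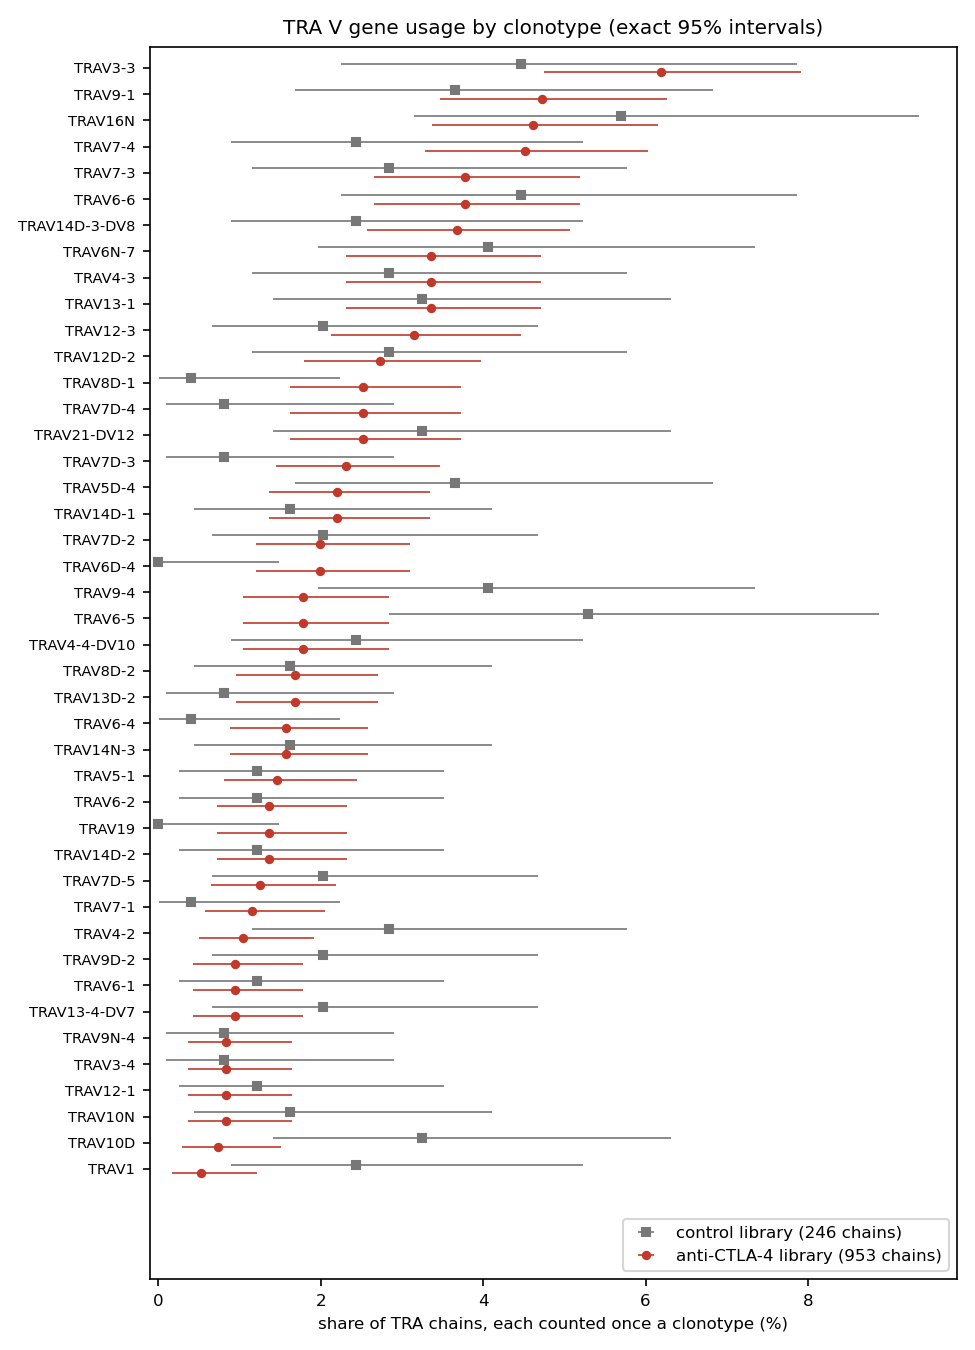
Share of TRA chains (horizontal axis, percent) for the 43 compared V genes, each chain counted once a clonotype; squares are the control library (246 chains), circles the anti-CTLA-4 library (953 chains), and bars are exact 95% intervals. Most intervals overlap, while TRAV6D-4 sits at 0 in the control and at 1.99% with anti-CTLA-4.

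Counting cells rather than clonotypes changed which V genes stood out with anti-CTLA-4 and changed little in the control. A cell-chain here is 1 TRA contig in 1 cell. In the control 17 of 255 cell-chains (6.67%) belonged to chains seen in 2 or more cells, and the largest chain had 3 cells. In the anti-CTLA-4 library 396 of 1248 did (31.7%), and the largest had 24. The control also held fewer cells, and the part of that in this difference was not tested. TRAV21-DV12 (chr14:53875984-53876752) had 24 chains in 74 cells with anti-CTLA-4, or 2.52% of chains and 5.93% of cell-chains. Its 7 repeated sequences had 16, 13, 10, 6, 6, 4 and 2 cells, and the other 17 sequences had 1 cell each. In the control its 8 chains were in 8 cells. TRAV13-2 (chr14:53634829-53635399) had 3 anti-CTLA-4 chains in 27 cells, 24 of them in 1 chain, against 2 chains in 2 control cells. TRAV3-3 had 98 cells over 54 sequences, the largest in 27 cells, and TRAV2 had 16 cells over 6 sequences. For TRAV21-DV12 and TRAV13-2 the high cell counts rested on few sequences. Of the 98 TRAV3-3 cells, 49 had a sequence seen in 1 cell, and the others were in sequences of 27, 11, 6, 3 and 2 cells.

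**Figure D2:**
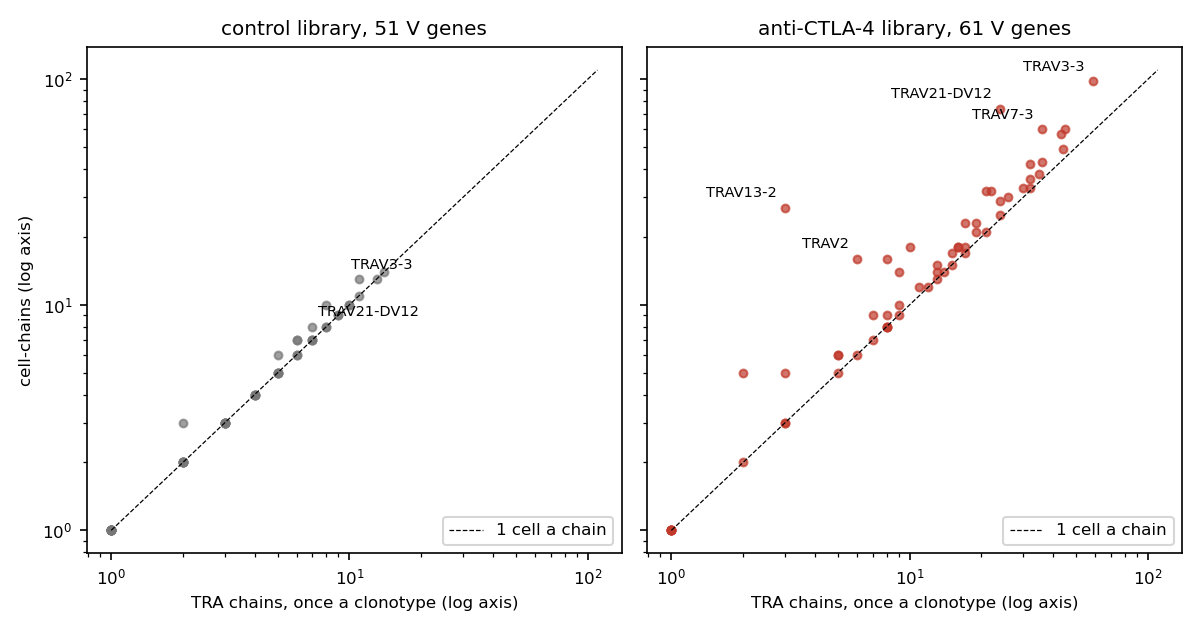
Cell-chains (vertical log axis) against chains counted once a clonotype (horizontal log axis) for each V gene, with 1 point per V gene and a dashed line at 1 cell a chain. Control points lie on or near the line, and with anti-CTLA-4 TRAV13-2 (3 chains, 27 cells) and TRAV21-DV12 (24 chains, 74 cells) lie far above it.

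The 5 largest anti-CTLA-4 clonotypes used 3 V genes and were found in Cd8a cells and in no cell with Cd4 alone. TRAV13-2-TRAJ34 had 24 cells, of which 20 held Cd8a and 4 neither gene, and 23 paired with TRBV13-1. TRAV21-DV12-TRAJ52 had 16 cells, 11 of them with TRBV2, and TRAV21-DV12-TRAJ57 had 13, 12 of them with TRBV13-1. TRAV3-3-TRAJ13 and TRAV3-3-TRAJ40 had 11 cells each, all 11 in both with TRBV10. Cxcr6, which encodes a chemokine receptor, was detected in 84.6% to 100% of the cells of these clonotypes, against 61.2% of all Cd8a TRA barcodes. Gzmb, a granzyme of killer cells, was in 70.8% of TRAV13-2-TRAJ34 cells and in 84.6% of TRAV21-DV12-TRAJ57 cells, against 43.4%. Pdcd1, an inhibitory receptor, was in 75.0% of TRAV13-2-TRAJ34 and 81.2% of TRAV21-DV12-TRAJ52 cells but in 30.8% of TRAV21-DV12-TRAJ57 cells, against 37.2%. The largest control clonotype, TRAV13-1-TRAJ45, had 3 cells with neither Cd4 nor Cd8a, and 66.7% of them held Foxp3, the transcription factor of regulatory T cells.

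Chains were then assigned to lineages by Cd4 and Cd8a UMIs, genes of the coreceptors for MHC class II and class I. A barcode with a Cd4 UMI and no Cd8a UMI was called a Cd4 cell, and the reverse a Cd8a cell. The control had 51 Cd4 cells (22.0%) and 33 Cd8a cells (14.2%), and 148 with neither (63.8%). The anti-CTLA-4 library had 405 (34.7%), 309 (26.5%), 444 with neither (38.0%) and 9 with both. Thinned to 1000 UMIs, a Cd4 UMI was found in 12.3% and 13.7% and a Cd8a UMI in 8.37% and 14.3% of TRA barcodes, against 22.0% and 35.5% and 14.2% and 27.3% before thinning. That step left out 5 control and 2 anti-CTLA-4 barcodes. Barcodes with neither a TCR contig nor a Ptprc UMI, Ptprc being the pan-leukocyte gene, gave Cd4 in 0.305% and 4.08% and Cd8a in 0.141% and 1.57%, at median depths of 13618 and 2475 UMIs. In the anti-CTLA-4 library, 602 barcodes with a B cell receptor (BCR) contig and no TCR contig gave Cd4 in 9 and Cd8a in 7, at a median of 3119 UMIs. No clonotype chain was shared between Cd4 and Cd8a cells in either library, with 58 Cd4 and 37 Cd8a chains in the control and 368 and 192 with anti-CTLA-4. Only a chain in 2 or more cells can be shared. There were 8 such chains in the control and 101 with anti-CTLA-4, unassigned cells included, so the control had little room for sharing.

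With anti-CTLA-4, V gene shares were also compared between Cd8a and Cd4 chains. Of 22 V genes with at least 10 chains over both lineages, 10 lay past 2-fold (45.5%), 6 toward Cd8a (27.3%) and 4 toward Cd4 (18.2%), and the interval excluded 1 for 4. The same fold gave 1 of 14 TRB V genes by clonotype (7.14%). By UMIs in the same TRA barcodes it gave 9.29% of 9033 genes other than Cd4 and Cd8a. Here too the counts per gene were not equal. TRAV7-3 (chr14:53443249-53443839) made up 16 of 192 Cd8a chains (8.33%) and 10 of 368 Cd4 chains (2.72%), a ratio of 3.07 (1.31 to 7.56). TRAV3-3 made up 21 (10.9%) and 17 (4.62%), a ratio of 2.37 (1.19 to 4.78). TRAV12D-2 had 10 and 7 chains (2.74, 0.941 to 8.47). TRAV14D-3-DV8 (chr14:53078452-53079045), a V gene that the delta chain can also use, went the other way with 1 Cd8a and 20 Cd4 chains (0.521% and 5.43%; ratio 0.0958, 0.00231 to 0.599). Added to TRAV14N-3 it had 1 and 29 chains (0.0661, 0.00162 to 0.399). With thinning to 1000 UMIs it had 0 Cd8a and 13 Cd4 chains, with an upper bound of 0.519 for the ratio, and with Cd8b1 added 3 and 18 (0.224, 0.0424 to 0.769). The TRAV7-3 interval included 1 with Cd8b1 added (2.15, 0.920 to 5.31). The TRAV3-3 interval included 1 with at least 2 UMIs (2.15, 0.872 to 5.48) and after thinning (2.18, 0.797 to 6.23). TRAV6D-4 had 0 Cd8a and 11 Cd4 chains, with an exact upper bound of 0.764 for the ratio, and TRAV7D-2 had 1 and 11 (0.174, 0.00405 to 1.20). In the control no V gene reached 10 chains. There TRAV3-3 had 6 of 37 Cd8a chains and 3 of 58 Cd4 chains, TRAV7-3 had 1 and 0, and TRAV14D-3-DV8 had 0 and 1.

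By cells the lineages differed more. With anti-CTLA-4, 172 of 335 Cd8a cell-chains (51.3%) and 111 of 438 Cd4 cell-chains (25.3%) were in chains of 2 or more cells, and in the control these were 2 of 38 and 2 of 59. TRAV21-DV12 had 45 Cd8a and 9 Cd4 cells with anti-CTLA-4, from 7 and 9 chains. Foxp3 was detected in 47 control TRA barcodes (20.3%) and 71 anti-CTLA-4 ones (6.08%). Their leading V genes were TRAV6-5 with 5 of 55 chains in the control and TRAV6-6 with 8 of 73 with anti-CTLA-4.

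**Figure D3:**
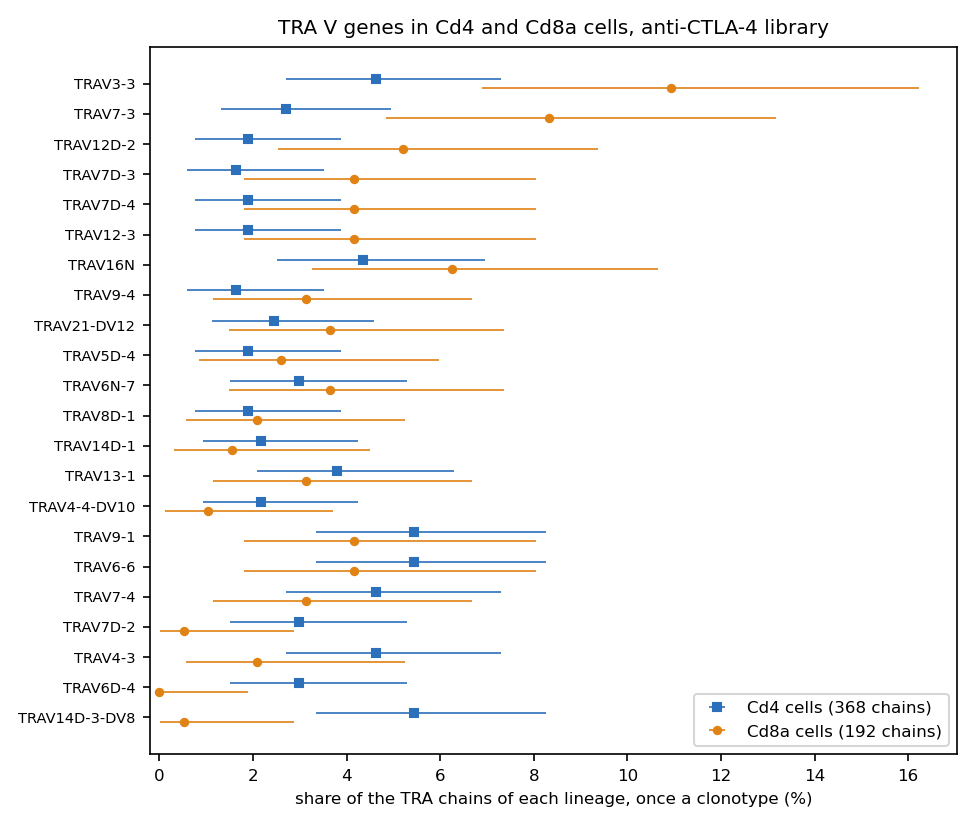
Share of the TRA chains of Cd4 cells (squares, 368 chains) and Cd8a cells (circles, 192 chains) for the 22 compared V genes in the anti-CTLA-4 library, once a clonotype, in percent on the horizontal axis with exact 95% intervals. TRAV3-3 (10.9% against 4.62%) and TRAV7-3 (8.33% against 2.72%) are higher in Cd8a cells and TRAV14D-3-DV8 (0.521% against 5.43%) in Cd4 cells.

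Of 765 V-J pairs seen over both libraries, 484 were seen in 1 chain, and the pair with the most chains carried 1 beta V gene in the anti-CTLA-4 library. TRAV7-3 with TRAJ22 had 10 chains, where the totals of both genes would give 1.61, and was in 2 control and 24 anti-CTLA-4 cells. Of the 24 cells, 22 were Cd8a cells, 0 were Cd4 cells, and all 22 with a TRB contig used TRBV31. Cells of 1 clonotype share their beta chain, so these 22 cells are not independent. These receptors carried 7 different TRB sequences and 6 different alpha sequences, printed above, so they were not 1 clone, and their beta J genes also differed. With another J gene, 3 of 33 TRAV7-3 cells used TRBV31 (9.09%). Among all anti-CTLA-4 barcodes with both chains it was in 90 of 1074 (8.38%), and among Cd8a barcodes without the pair in 15 of 274 (5.47%). TRAV7D-3, 99% identical to TRAV7-3, was joined to TRAJ22 in 6 anti-CTLA-4 cells, of which 5 were Cd8a cells and 5 used TRBV31. The 1 control cell with TRAV7D-3 and TRAJ22 was a Cd4 cell and did not use TRBV31. In the control the Cd8a cell with the pair also used TRBV31, with TRBJ1-6, and the other cell did not. The pair made up 8 of the 16 TRAV7-3 chains in anti-CTLA-4 Cd8a cells. Without it TRAV7-3 had 8 Cd8a and 10 Cd4 chains. The beta partner and the lineage of the V-J pairs were looked up after their counts were known.

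Other frequent pairs differed in how their cells split between the lineages. Here too, cells of 1 clonotype are not independent. TRAV3-3 with TRAJ13 had 8 chains, in 6 control cells (4 Cd8a, 0 Cd4) and 27 anti-CTLA-4 cells (23 Cd8a, 0 Cd4). The Cd8a cells held 3 of its chains in the control and 3 with anti-CTLA-4. TRAV21-DV12 with TRAJ56 had 7 chains in 2 and 10 cells, and 6 of the 10 used TRBV13-3, as did both control cells. Those 6 cells were of 1 clonotype. TRAV9-1 with TRAJ15 had 6 chains, all with anti-CTLA-4, in 6 Cd4 and 2 Cd8a cells. TRAV1 with TRAJ30, listed first of 8 pairs with 5 chains, was in 1 Cd8a, 1 Cd4 and 3 unassigned cells. TRAV4-3 with TRAJ18, also at 5 chains, was chosen after its values were seen. All 2 control and 5 anti-CTLA-4 cells of it were Cd4 cells, and 6 of these 7 used TRBV10. The 5 anti-CTLA-4 cells held 2 TRB sequences, and 3 of them were of 1 clonotype. By the rule a Cd8b1 UMI does not count, and the control cell with TRBV10 held 10 Cd8b1 UMIs and 1 Cd4 UMI.

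The 4 chains found in both libraries were 1.63% of 245 control sequences and 0.429% of 932 anti-CTLA-4 sequences, and 3 of them were in Cd8a cells. TRAV3-3-TRAJ13 was in 2 control and 27 anti-CTLA-4 cells, of which 2 and 23 held Cd8a. Its junction held no base outside the reference V and J genes. In the 26 anti-CTLA-4 cells with a beta chain it was paired with 3 TRB sequences, TRBV10 in 11 cells and TRBV19 in 9 and 6. In the control it was paired with TRBV19 and TRBJ2-1, the same beta genes but another beta sequence. TRAV21-DV12-TRAJ56 was in 1 control and 6 anti-CTLA-4 cells, all Cd8a cells, and its TRBV13-3 beta chain was also identical in nucleotides between the libraries. Whether such a receptor arose in both groups or passed between the libraries cannot be told apart from these files. No other of the 4 had the same beta nucleotides in both libraries, which shared 2 TRB sequences in all. TRAV4-2-TRAJ49 was in 1 and 9 cells, 1 and 8 of them Cd8a cells, with the same beta V and J genes and different beta sequences. The beta V gene in that case has the deposited name TRBV12-2+TRBV13-2, which joins 2 genes. At the amino-acid level 6 chains were shared. The median CDR3 was 42 bases long in both libraries, from 30 to 54 in the control and 27 to 57 with anti-CTLA-4. Both libraries used 41 J genes, led by TRAJ22 with 14 control chains (5.69%) and by TRAJ32 and TRAJ40 with 40 anti-CTLA-4 chains each, of 953. Among all sequences the median number of bases outside the germline was 4 in both libraries, and 14.7% of control and 13.8% of anti-CTLA-4 sequences had 0. Within the anti-CTLA-4 library 15 alpha sequences recurred in 2 or more clonotypes, all 15 with 2 or more beta sequences.

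Among V genes that have no copy, the place of a V gene in the locus went with the place of the J genes it joined. V genes near the J cluster mostly joined its near side, and those far from it mostly joined the rest. The 60 annotated J genes were split into 20 nearest the V genes, 20 in the middle and 20 nearest the constant gene. Among chains of single-copy V genes, 10 of 13 control chains (76.9%) and 37 of 49 anti-CTLA-4 chains (75.5%) of the proximal V genes used the V-side J genes. For the distal single-copy V genes these were 1 of 19 (5.26%) and 10 of 65 (15.4%). Over all V genes, copies included, the proximal 42 annotated V genes gave 42.3% and 37.7% and the distal 43 gave 32.1% and 33.6%. Spearman's rho of V order with J order, counted from the V side, was -0.14 over 246 control and -0.16 over 953 anti-CTLA-4 chains, and -0.44 over 32 and -0.55 over 114 chains of single-copy V genes. These are descriptions over chains of the same 2 libraries. Single-copy V genes differ from the others both in lying at the ends and in lacking a copy, and the parts of these in the larger rho cannot be told apart. TRAV21-DV12 used V-side J genes in 25 of 32 chains over both libraries (78.1%). TRAV1 (chr14:52427928-52428876), the outermost V gene, used neither end, with all 11 chains on J genes at places 22 to 35 of 60. The choice to set the single-copy V genes apart was made after the data were seen.

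**Figure D4:**
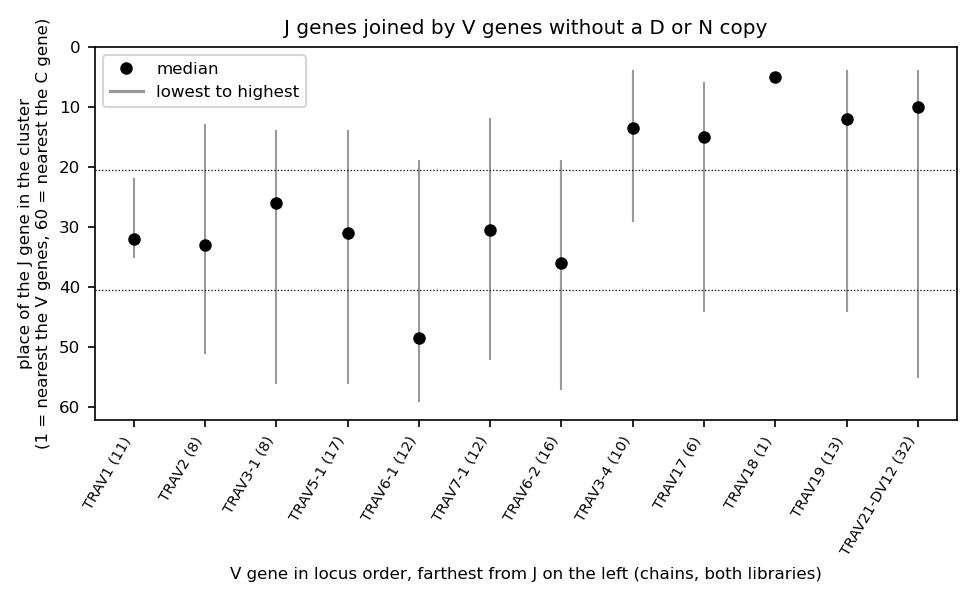
Place of the joined J gene in the cluster of 60 (vertical axis, 1 nearest the V genes) for the 12 called V genes without a D or N copy, in locus order with the number of chains over both libraries; points are medians, lines run from the lowest to the highest place, and dotted lines part the J cluster in 3. Medians are 26 to 48.5 for the 7 V genes at the far end and 5 to 15 for the 5 at the near end.

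The invariant NKT join was present in 1 cell of each library. TRAV11 (chr14:53519303-53519859) with TRAJ18 was in 1 of 232 control TRA barcodes (0.431%, 0.0109 to 2.38) and 1 of 1167 anti-CTLA-4 barcodes (0.0857%, 0.00217 to 0.476), which is too few to compare. Both cells had the same CDR3 nucleotides, printed above, with no base outside the reference V and J genes. The control cell held 2 UMIs of Zbtb16, 5 of Il2rb, 7 of Cxcr6, 2 of Icos and 1 of Gata3. The anti-CTLA-4 cell held 1, 6, 9, 12 and 1 of the same genes. Both thus had 5 of the 12 listed NKT genes and had 0 UMIs of Cd4 and Cd8a, and their beta chains used TRBV13-1 and TRBV12-2+TRBV13-2. A Zbtb16 UMI was in only 3 of 232 and 11 of 1167 TRA barcodes (1.29% and 0.943%), spread over 3 and 11 V genes. Il2rb, Cxcr6, Icos and Gata3 were common there, each in 21.1% to 56.5% of control TRA barcodes. With anti-CTLA-4 they were in 22.6% to 56.6%, so these genes do not set the 2 cells apart. The duplicate TRAV11D was not called in any contig, and TRAV11 is 99.7% identical to it.

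In the anti-CTLA-4 library 4 further cells had TRAV11 with TRAJ32. All 4 were Cd4 cells with TRBV29 and 0 Zbtb16 UMIs, and held 4, 3, 5 and 1 of the 12 listed NKT genes, so the count of listed genes did not part them from the cells with TRAJ18. They shared 1 alpha sequence with 11 bases outside the germline. TRAJ18 with another V gene was in 9 control cells (3.88%) and 40 anti-CTLA-4 cells (3.43%). The MAIT-type join of TRAV1 with TRAJ33 was in 1 cell of each library. The control cell held Cd4 and 6 Foxp3 UMIs, the anti-CTLA-4 cell held Cd8a, their CDR3 sequences differed, and both had 0 Zbtb16 UMIs.

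The V genes could be read a second time from Trav UMIs in the expression libraries, which share the same cDNA and are no independent sample. A UMI of the same V symbol was found for 44.3% of 255 control contigs and 69.3% of 1248 anti-CTLA-4 contigs, or 56.5% and 80.2% when D and N copies counted as well. Of barcodes with 1 TRA contig, 30 of 209 in the control (14.4%) held a UMI of another V subgroup. With anti-CTLA-4 these were 298 of 1086 (27.4%), and their source was not tested. Barcodes without a TCR contig held any Trav UMI in 0.729% and 8.89%, and TRB barcodes without a TRA contig in 18.6% and 32.3%. Pooled over V genes, the share was lower for those with a closer relative. For V genes under 95% identical to any other, 66.7% and 87.3% of contigs had a UMI of the symbol, and for those at least 99% identical 12.2% and 40.7%. Single genes differed widely within these classes. With anti-CTLA-4, TRAV7-3 and TRAV7-4, at least 99% identical to a copy, had it in 56 of 60 and 55 of 57 barcodes. TRAV7D-3 and TRAV7D-4 had it in 31 of 32 and 28 of 29. TRAV9N-4, under 95% identical, had it in 3 of 16. At the extremes, TRAV3-3 had a UMI of its symbol in all 98 anti-CTLA-4 barcodes with its contig and TRAV21-DV12 in 73 of 74. TRAV6-6 and TRAV6N-7, each 100% identical to a copy, had it in 0 of 43 and 0 of 42. TRAV6D-4 had it in 23 of 23, and over all TRA barcodes Trav6d-4 gave 1 UMI in the control and 76 with anti-CTLA-4. Of the other 4 V genes whose contig interval excluded 1, Trav8d-1 gave 4 and 88 UMIs (ratio 3.62) and Trav1 gave 10 and 20 (0.329), in the direction of the contigs. Trav6-5 gave 2 and 38 UMIs (ratio 3.13), opposite to its contigs. Its symbol was found in only 0 of 13 control and 4 of 23 anti-CTLA-4 barcodes with a TRAV6-5 contig. The nearest relative of TRAV6-5 is 89.1% identical over the whole transcript, a value that unequal annotated lengths can lower. The symbol was thus rarely read with these contigs, and its UMIs cannot speak for or against their lower share. Trav6d-5, the D copy by name, gave 3 and 33 UMIs (ratio 1.81). Whether these came from cells with TRAV6-5 contigs was not tested. TRAV10D contigs had a UMI of the symbol in 1 of 8 and 2 of 7 barcodes, and Trav10d did not reach 20 UMIs. Trav10, 99.3% identical to it, gave 10 and 13 UMIs (ratio 0.214), in the direction of the TRAV10D contigs. Of 44 Trav genes with at least 20 UMIs, 21 lay past 2-fold between the libraries after scaling to all UMIs of these barcodes (47.7%), against 18.7% of all genes. Trav UMIs as a whole numbered 381 in the control and 3927 in the anti-CTLA-4 TRA barcodes. The UMI ratios are per all UMIs and not shares of Trav UMIs. A difference in the whole Trav level thus enters each of them, which is not so for contig shares. The UMI sums also count expanded clonotypes by cell.

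**Figure D5:**
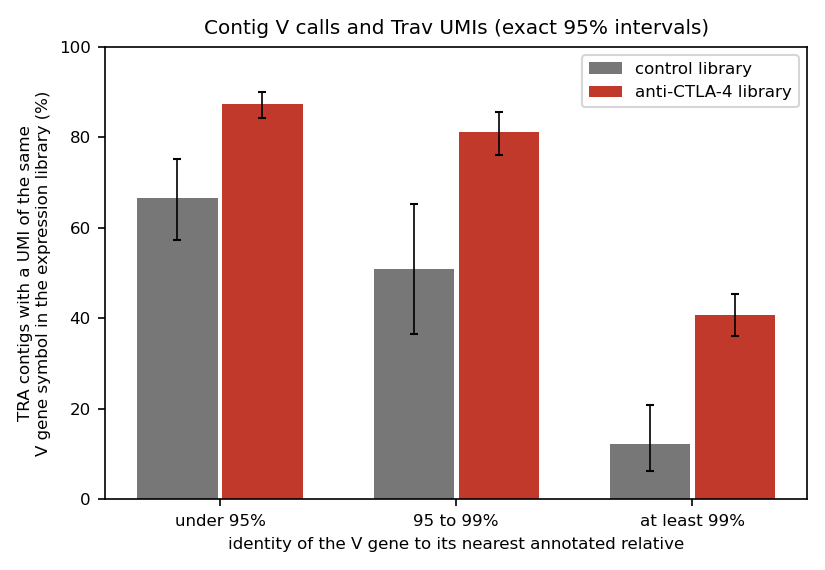
Percent of TRA contigs whose barcode held a UMI of the same V symbol in the expression library (vertical axis) by the identity of the V gene to its nearest annotated relative, for the control (grey) and anti-CTLA-4 (red) libraries, with exact 95% intervals. Identity is over whole annotated transcripts, so unequal annotated lengths lower it. Pooled over V genes with anti-CTLA-4, the share is 87.3% for those under 95% identical and 40.7% for those at least 99% identical. In the control these are 66.7% and 12.2%.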

How the data were processed

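Gene expression and TCR sequences of 2 treatments were used, with the BCR library of the anti-CTLA-4 treatment only to find barcodes with both receptors. The authors' receptor tables hold deposited counts of UMIs and reads per assembled contig, with the V and J genes and clonotype. The expression files hold deposited raw UMI counts per gene and barcode. Per the submitters' processing notes, Cell Ranger 5.0.0 was used with mm10 or GRCm38. The V(D)J reference is not given in the sources used here. Gene positions (1-based, GRCm38) come from the GENCODE M21 annotation. No control BCR library is among the samples used here.

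One control contig without a clonotype repeated another of its barcode and was merged with it. Lineages needed at least 200 genes and at most 15% mitochondrial UMIs. Germline bases of a CDR3 are the longest exact matches to the annotated V and J genes. A ratio of shares has an exact conditional binomial interval (scipy 1.17.1), tested on simulated data, and a count of 0 was bounded with 3 counts. V genes with at least 10 chains were compared. No doublet caller was run. Barcodes with over 1 TRB contig or a BCR contig were left out as an alternative. Named are the 10 V genes with the most chains, the 3 highest and 3 lowest ratios by the interval bound nearest to 1 for each comparison, TRAV11, TRAV11D, TRAV1, those of the 5 largest clonotypes of each library and the 5 leading V-J pairs. The V genes, gene lists and rules were chosen with earlier results of these data known.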

Additional observations from a re-analysis of the deposited data

Results flagged for a closer look

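In the anti-CTLA-4 library 44 of 1167 TRA barcodes (3.77%, 2.75 to 5.03) also held a BCR contig, a signal from the BCR library that the comparisons above do not use. They spread over 29 V genes and held a median of 4854 UMIs, against 3893 in the other TRA barcodes. Cd79a was detected in 22.7% of them and in 0.534% of the others, and Cd3e in all 44 and in 94.0%. By lineage, 18 were Cd4 and 13 were Cd8a cells. Their part in the V gene shares was not tested beyond the alternative that leaves them out.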

How the results depend on the processing

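No paired analysis was possible because each group has 1 library and the labels number no replicates. Over 171 alternative values 0 were marked as reversed. The TRAV19 ratio, which is a bound, fell below 1 in some runs and was not marked so. A value counted as moved when it left the exact 95% interval of the value given, or, for a count, differed by over 1.5 times. These intervals are wide, so values inside them can differ severalfold. Of those on the main comparisons 49 stayed inside and 18 moved, and of the others 94 and 10. Of 43 V genes compared between the libraries, 13 lay past 2-fold. This became 6 of 27 with contigs of at least 3 UMIs and 2 of 15 with subgroups merged. It was 5 of 23 with at least 20 chains and 20 of 43 at a fold of 1.5. TRAV6D-4, set against 3 control chains in place of 0, had a ratio of 1.64 and TRAV19 of 1.12, and these were 1.09 and 0.298 with contigs of at least 3 UMIs. The share of anti-CTLA-4 cell-chains in chains of 2 or more cells was 36.5% with such contigs. The 10 V genes past 2-fold between lineages became 5 with at least 2 UMIs for a lineage and 5 after thinning to 1000 UMIs. These runs rested on 430 and 325 anti-CTLA-4 cells with Cd4 or Cd8a in place of 714. The Cd8a share of cells with Cd4 or Cd8a, 39.3% in the control and 43.3% with anti-CTLA-4, was 56.8% and 50.2% with at least 2 UMIs, 50.5% and 50.7% with Cd8b1 added, and 40.4% and 51.1% after thinning. The order of the libraries in this share thus turned round at 2 UMIs and was level with Cd8b1 added. The TRAV7-3 ratio of Cd8a over Cd4 was between 2.16 with Cd8b1 added and 4.64 with at least 2 UMIs. Without barcodes with over 1 TRB contig or a BCR contig, TRAV14D-3-DV8 had 0 Cd8a chains, and the exact upper bound of its ratio was 0.436. TRAV7D-2 had 0 Cd8a and 5 Cd4 chains after thinning, with an upper bound of 1.73. Setting apart the V genes without a copy, chosen after the data were seen like the merging of D and N copies and the run without TRAV1 and TRAV2, gave V-side J shares of 76.9% and 5.26% in the control and 75.5% and 15.4% with anti-CTLA-4. The share of contigs with a UMI of the same symbol was 24.3% and 49.3% when 2 UMIs were required and 72.5% for anti-CTLA-4 contigs of at least 3 UMIs. The cause of these moves was not tested. Contigs of 3 UMIs at the median, V genes with few chains and 1 library per group limit every value, and reads of identical V copies cannot be told apart.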
